A study of Drosophila melanogaster with 2 samples.

Results

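Of the 3848 peaks that chromatin immunoprecipitation followed by sequencing (ChIP-seq) placed for the Drosophila homeodomain protein Aristaless, 690 had their summit deep inside a gene. These far-intronic peaks were chosen by position alone. The summit lay on 1 of 7 chromosome arms, inside a protein-coding gene of the Ensembl annotation but in none of its coding or untranslated exon sequence, and more than 2000 bp from the nearest protein-coding transcription start site (TSS). They made up 18.1% of the 3822 summits on those arms (95% Wilson interval 16.9 to 19.3). The flies were transgenic and carried al, the gene that encodes Aristaless, fused to eGFP, and both libraries came from whole embryos collected from 0 to 24 h of age. An antibody against GFP was used on sonicated chromatin in fragments of 200 to 800 bp. The design held 1 group of 2 biological replicates, with no untagged embryos and no other condition to compare. Control libraries that the labels point to were not used, so binding by Aristaless and a general ChIP signal cannot be told apart.

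Aristaless belongs to the paired class of homeodomain proteins, which contact DNA through a short core that reads the same on both strands, TAATTA, and can bind as pairs at a head-to-head repeat of its first letters. The al gene is known for its part in the tips of the legs and antennae and in the wing, and in the embryo it is active in small groups of cells. Introns of fly developmental genes often hold enhancers, the stretches of DNA that set where a gene is transcribed, and these can lie far from any start site. Whole embryos mix many cell types, so a peak does not say in which cells the protein was bound.

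The sequences below show what the core and the paired arrangement look like at strong far-intronic summits. They were read from the plus strand of the release 6 genome (dm6), with 30 bases each. Capitals mark the core in the first 5 and the paired site with a 2-bp spacer in the last 2. They are examples and not a full ranking. The peak of atos, with the core and a signal of 328, was stronger than several of those shown and is not printed. Nor is that of mam, with a signal of 343, whose paired arrangement has a 3-bp spacer. The sequences shown lie, in order, at chr3L:10682955-10682984, chr2L:8292580-8292609, chr3R:14738647-14738676, chr3L:3771730-3771759, chr3R:27407227-27407256, chrX:2297653-2297682 and chr2L:17379132-17379161.
simj: tattattaaataTAATTAttaggactataa
Btk: aaaaaaactgcaTAATTAatatcttgactt
eff: ttcttattcgaaTAATTAatattgtgaact
CG32264: tatatcaagataTAATTAtttagatattta
side: ggcagtcttgttTAATTActaaggaaataa
Raf: tagtgtttcgTAATTCATTAagatttttgt
Lrch: atatagctaaTAATCCATTAcagcgcgtgc
The core of simj was centred 4 bp from its summit and that of side 4 bp on the other side. In Btk, eff and CG32264 the distances were 20, 12 and 54 bp. The paired sites of Raf and Lrch lay 66 and 44 bp from theirs.

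The strongest far-intronic peaks were found in both replicates, and several stood in genes of well-known regulators. The strength of a peak is the authors' signal value. Its scale is unknown, and it serves to rank peaks within a list. The first was in the intron of CG32486 with a signal of 872, and its signal was 510 in the replicate 1 list and 371 in the replicate 2 list. Tlk, a serine/threonine kinase gene, held the second with 701 in the series list, 463 in replicate 1 and 240 in replicate 2. The gene osa encodes a subunit of the Brahma chromatin remodelling complex, and it held both the third and the fifth. The former had a signal of 613, with 341 and 276 in replicates 1 and 2. The latter had 584, with 354 and 233. These 2 osa summits were 730 and 172 bp from start sites of the long non-coding RNA genes CR46035 and CR46036, which the rule did not count as protein-coding start sites. A forkhead transcription factor gene, CHES-1-like, held the fourth with 587 (395 and 201). Hr3, a nuclear receptor gene of the ecdysone cascade, held the sixth with 540 (309 and 230).

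The next 6 in rank ran from a signal of 497 in CG12769 to 359 in Tis11, whose product binds mRNAs and promotes their decay. Between them stood Gug, a transcriptional corepressor gene, with 426 (241 and 186). The gene simj, for a subunit of the NuRD remodelling complex, had 402 (236 and 159). CG34417 had 400.1 (230 and 168), and Btk, a Tec-family tyrosine kinase gene, had 399.8 (232 and 170). Ranked peaks of trx (592) and tara (586), which are outside the thresholded list used here, would stand among the first 6. All 12 summits were in the thresholded list of each replicate, and replicate 1 gave the higher value at each. None of the first 8 held the core within 100 bp of the summit, and of the 12 only simj, with 2 sites, and Btk, with 1, did. The 5 strongest peaks with the core were those of simj, Btk, atos (signal 328), eff (302), which encodes a ubiquitin-conjugating enzyme, and CG32264 (295).

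Far-intronic peaks were weaker than intronic peaks near a start site. Their signal ran from 2.23 to 872 with a median of 78.6 and quartiles of 58.0 and 124. The median was 94.6 for the 1050 intronic peaks within 2000 bp of a TSS, 79.6 for the 315 intergenic peaks beyond 2000 bp and 90.2 for all 3822. With all peaks split by signal into 4 equal classes, far-intronic peaks made up 23.4% of the weakest, 18.2% and 17.6% of the middle classes and 13% of the strongest. Of the 100 strongest peaks 6 were far-intronic, or 0.870% of the members against 3.0% of all other peaks, a difference of -2.13 percentage points (95% Newcombe interval -2.94 to -0.981). The intervals here cover counting error over peaks only and treat peaks as independent, which neighbouring peaks may not be. The lists give no read counts, and the depth behind each peak is therefore unknown. The 25 members with a signal under 20 each lay within 250 bp of another peak. Where such neighbours overlap 1 peak of a replicate list, both take their replicate signal from it.

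In each replicate's ranked list, 688 members overlapped a replicate 1 peak with a median signal of 50.7, and 671 overlapped a replicate 2 peak with a median of 32.9. Replicate 1 was higher at 595 of the 669 members with both values, and at 3245 of 3711 peaks overall. Across those 669 members Spearman's rho between the replicates was 0.699, against 0.773 across all peaks. This is a description across peaks, which share 2 libraries. The scale of the lists may differ, so a higher value in replicate 1 is no measure of binding.

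**Figure D1:**
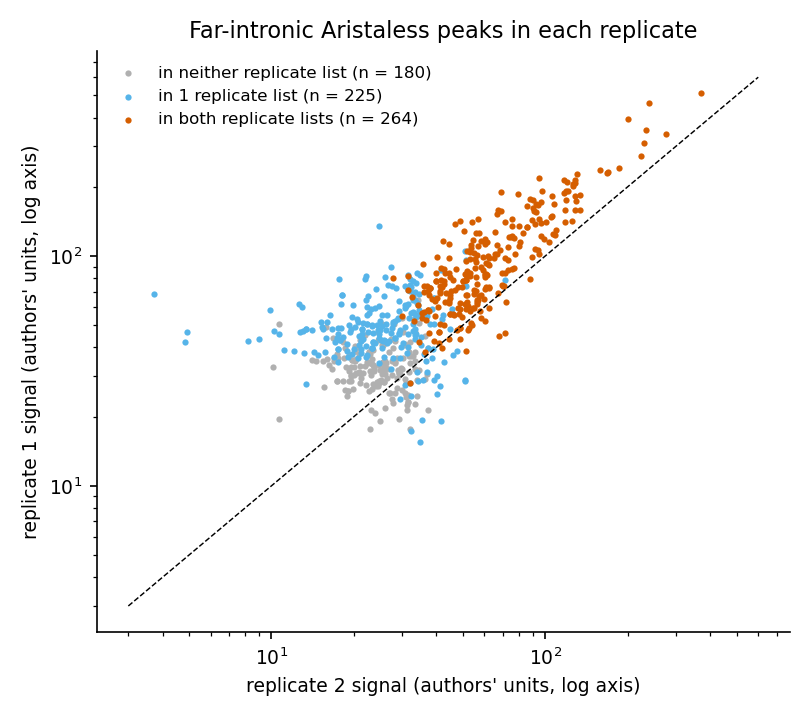
Signal of far-intronic peaks in the replicate 2 list (x axis) and the replicate 1 list (y axis), in the authors' units on log axes, for the 669 members with both values; the dashed line marks equal values. Points found in both replicate lists fill the upper right, and most points lie above the line.

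Fewer far-intronic peaks than near-intronic ones were found again in a single replicate. Of the 690 members, 464 (67.2%) overlapped a peak of the replicate 1 thresholded list by at least 1 bp, and of all peaks 73% did. For replicate 2 the count was 299 (43.3%), against 53.5% of all peaks. Both lists held 264 members (38.3%) and neither held 191 (27.7%). Against near-intronic peaks the share fell short by 10.7 percentage points in replicate 1 (77.9% there, Newcombe interval of the difference -15.0 to -6.37) and by 10.1 in replicate 2 (53.4%, -14.8 to -5.30). Against intergenic peaks the difference was 5.34 points in replicate 1 (-0.967 to 11.8) and -8.73 in replicate 2 (-15.3 to -2.08), so its direction differed between the replicates. The conservative list held 531 members (77.0%), against 82.2% of all peaks, and 467 members (67.7%) had a q value of their own of at most 0.05, against 75.4%.

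Strong members were found in both replicates more often than weak ones. With the members split by signal into 4 classes, the strongest ran from 124 to 872, and both lists held 167 of 173 members, or 96.5%. In the next class down they held 86 of 172 (50%). In the one below it they held 3 of 172 (1.74%) and in the weakest 8 of 173 (4.62%). The signal of the series list and the calls in the replicate lists come from the same reads, so this is a description.

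Far-intronic peaks thinned out with distance from the start site. Protein-coding introns more than 2000 bp from a TSS span 43.2 Mb, and the members amount to 16 per Mb of it (95% Poisson interval 14.8 to 17.2). Near-intronic sequence held 74.2 peaks per Mb and intergenic sequence beyond 2000 bp held 8.66. Unknown bases of the genome were left out of the intergenic length only. From 2000 to 5000 bp there were 312 members or 25.8 per Mb (23 to 28.8). From 5000 to 10000 bp there were 198 or 18.4 per Mb, from 10000 to 20000 bp 122 or 13.7 and from 20000 to 50000 bp 54 or 9.28 (6.97 to 12.1). Beyond 50000 bp lay 4 members in 5.61 Mb, or 0.713 per Mb (0.194 to 1.83). Each band had a lower density than the one before it, and the intervals of the first 2 bands do not overlap, nor do those of the last 2. Of these 4, 2 lay in Myo81F, the gene with the most eligible intron (1958 kb), with signals of 63.2 and 53.0. The next longest, Pzl with 702 kb and lovit with 430 kb, held no member. How well reads can be placed there was not tested.

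The median member lay 5573 bp from the nearest TSS, in an intron of 13361 bp and a gene of 39.4 kb. The nearest TSS belonged to the gene around the peak for 508 members and to another gene for 182. A first intron of at least 1 transcript held 406 members, or 58.8% (55.1 to 62.5), and first introns make up 36.8% of the eligible sequence. Summits just past the distance limit were those of Men-b, a malic enzyme gene, at 2002 bp with a signal of 80.4, Dif, a gene for an NF-kappaB family factor, at 2005 bp with 119, and ps at 2008 bp with 80.4. Just short of it and therefore left out were RhoGAP18B at 1996 bp with 171, Mob2 at 1991 bp with 33.6 and pot at 1986 bp with 185.

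The X chromosome held more far-intronic peaks per Mb than the autosomes. On X there were 184 members or 24.1 per Mb (20.7 to 27.8). On the arms of chromosomes 2 and 3 together there were 506 or 14.8 per Mb (13.5 to 16.2). Each of those arms lay between 13.2 on 3R and 15.9 on 2L, with 15.3 on 2R and 15.8 on 3L, so X stood above all 4. The list used here lacks 17 far-intronic peaks of the series' ranked list with an IDR of at most 0.01, of which 15 lie on 3R. With them, an alternative chosen after seeing the data, 3R had 14.4 per Mb and was still the lowest of the 4. The ratio of X to autosomes was 1.63 (exact interval 1.37 to 1.93). For near-intronic peaks it was 1.24 (1.07 to 1.44) and for intergenic ones 0.885 (0.628 to 1.22). The ratio depends in part on the long autosomal introns with few peaks: up to 50000 bp from a TSS it was 1.41 (1.18 to 1.67). By distance band it was 1.51 (1.17 to 1.95), 1.20 (0.845 to 1.67), 1.39 (0.895 to 2.11) and 1.73 (0.926 to 3.13). Only the interval of the nearest band leaves out 1, and all 4 ratios are above it. The sex of the embryos is not given, and the dose of X in the chromatin was not tested. No member lay on chromosome 4, where 0 peaks in 0.451 Mb allow up to 8.18 per Mb, or on Y.

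**Figure D2:**
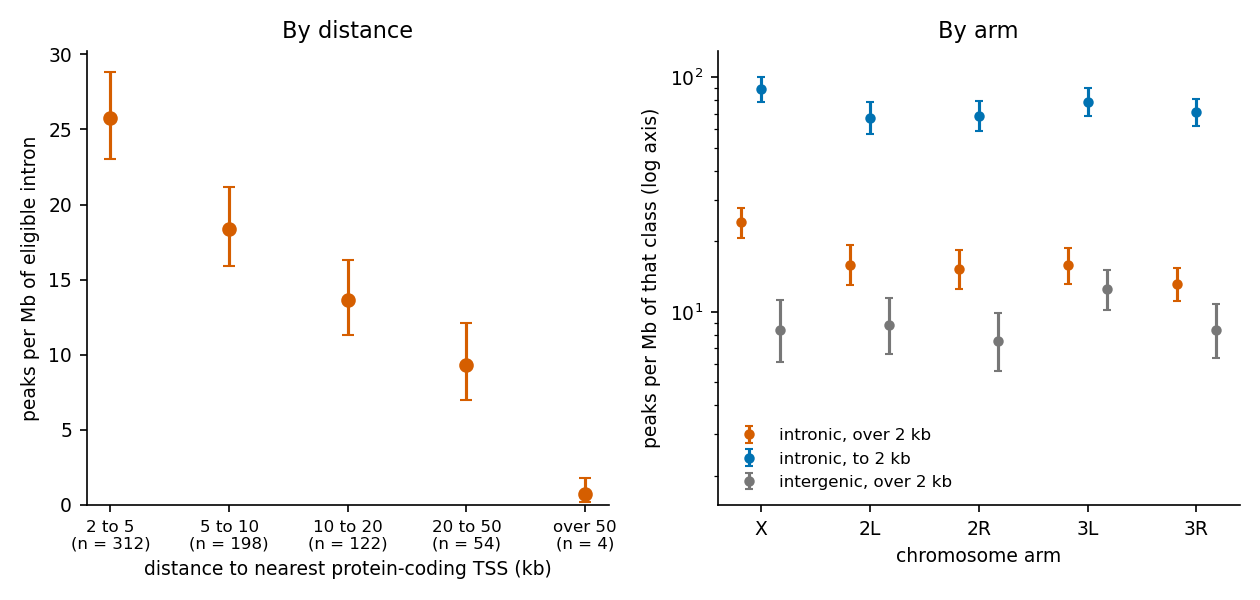
Left, far-intronic peaks per Mb of eligible intron by distance to the nearest protein-coding TSS in kb; right, peaks per Mb by chromosome arm for far-intronic, near-intronic and intergenic peaks on a log axis. Points are densities and bars 95% Poisson intervals; density falls from 25.8 to 0.713 per Mb with distance, and X stands at 24.1 per Mb for far-intronic peaks.

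Most genes that held a far-intronic peak held a single one. Of 13968 protein-coding genes, 4957 have intron far enough from any TSS to hold such a peak, and 438 of them, or 8.84%, did. One member was held by 283 genes, 2 members by 94 and 3 or more by 61, and these 61 genes held 241 of the 690. Host genes had a median of 19.9 kb of eligible intron and the other genes 0.635 kb. Of the 2900 genes with up to 2000 bp of eligible intron 0.448% were hosts. The shares were 11.4% from 2000 to 10000 bp, 25.3% up to 30 kb and 38.7% above that. The density was highest, at 29.2 members per Mb, in the genes with 2000 to 10000 bp. It was 10.7 in the longest class. A gene is given credit for every member inside its span, and 24 members lay in more than 1 gene.

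The gene with the most members was kirre, an immunoglobulin-domain adhesion gene that acts in the fusion of muscle precursors, with 10. Their signals ran from 50.4 to 287 over 292 kb of eligible intron, and the strongest lay also inside the gene CG32795. In CHES-1-like 8 members stood in only 7.88 kb. Their signals ran from 7.03 to 587, and both replicate lists held 7 of the 8. The gene sbb, which encodes a transcriptional corepressor, had 8 as well, from 26.1 to 248 in 46.8 kb. Raf, the kinase that passes on the signal of receptor tyrosine kinases, had 7. The 2 strongest Raf members had signals of 303 (188 in replicate 1, 117 in replicate 2) and 275 (169 and 107). The gene dar1, for a zinc finger factor that acts in dendrite growth, and CG12535 also had 7 each, with strongest signals of 224 and 164.

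**Figure D3:**
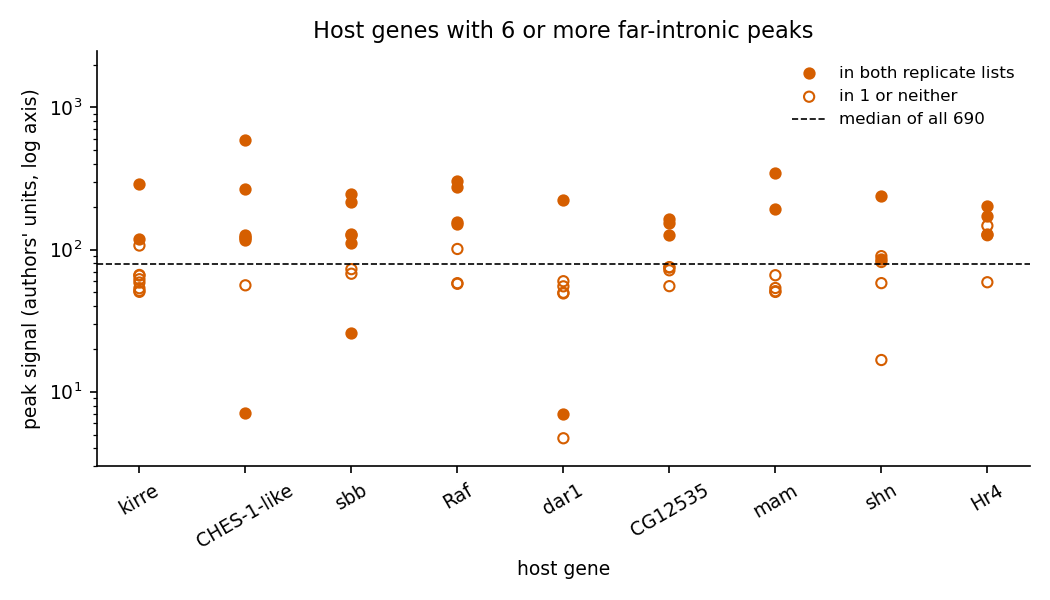
Signal of each far-intronic peak, in the authors' units on a log axis, in the 9 genes with 6 or more of them; filled circles are peaks held by both replicate lists, and the dashed line is the median of all 690. Every gene has at least 1 filled circle above the median, and kirre has most of its 10 peaks below it.

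Members also came in groups within genes. With summits up to 1000 bp apart joined, the 690 formed 617 groups, of which 553 were single peaks and 64 held 137 peaks together. The largest group, of 4, was in B4 on 2L with a strongest signal of 186 (99.5 and 89.5). A group of 3 in beat-Ib reached 310 (191 and 121). The closest neighbours may be parts of 1 bound region, and 60 members lay within 250 bp of another member.

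Among 22 gene lists, those for ecdysone response and for the EGFR and Dpp pathways had the largest shares of host genes. The lists were chosen with earlier results of these data known, and no list was tested. In the ecdysone list 11 of 23 genes with eligible intron were hosts (47.8%), in the EGFR list 9 of 20 (45%) and in the Dpp list 8 of 19 (42.1%), against 8.84% of all such genes. Since long genes are hosts more often, the share was also taken over all genes and weighted to each list's classes of eligible length, which gave 25.4%, 13.4% and 16%. The densities were 33.0, 87.8 and 68.1 members per Mb, against 16 over all genes. With the own lists of replicates 1 and 2 the ecdysone hosts numbered 8 and 8, the EGFR hosts 8 and 6 and the Dpp hosts 6 and 7. With a distance limit of 5000 bp the EGFR hosts numbered 5, and with each peak given to the gene of its nearest TSS the Dpp hosts numbered 5.

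The EGFR pathway carries signals from secreted ligands through a receptor and a kinase cascade to Ets transcription factors. Members lay in the ligand genes Krn (strongest signal 51.1) and vn (85.1) and in ru (69.6), whose product releases ligands. They lay in the inhibitor genes aos (261, with 166 and 94.0 in replicates 1 and 2) and sty (90.2). The aos summit also lies inside the gene CG33158, and the ru summits lie inside Ptp61F. Raf and rl (120), the gene for the MAP kinase, were hosts too. So were the genes of both Ets factors, the activator pnt with 4 members up to 155 and the repressor aop with 2 up to 115.1. The receptor gene Egfr had none in its 18.9 kb of eligible intron, and csw had none in 6.27 kb. Counts per gene range from 1 to 7, and 7 of the 20 members in the pathway's genes were in Raf.

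Dpp is the fly's main BMP ligand. Members lay in dpp itself (104.1), in the receptor gene tkv (95.5) and in genes for proteins that bind or move the ligand: sog with 2 up to 234, cv-2 with 3 up to 155, dlp with 2 up to 110 and dally with 1 at 73.6. The transcription factor gene shn held 6 up to 238 (148 and 105), and Dad, an inhibitor that the pathway induces, held 1 at 151. The genes tok and Mad had none, with 21.7 and 4.63 kb of eligible intron.

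Ecdysone is the steroid that times moulting, and in the embryo it peaks in mid-development. Its receptor gene EcR held 2 members up to 183 (102 and 77.5). Further nuclear receptor genes of the list were hosts too: Hr3 with 2 up to 540, Hr4 with 6 up to 202, Eip75B with 2 up to 105, Hr38 with 1 at 62.6 and ftz-f1 with 4 up to 78.1. The coactivator gene tai held 3 up to 125. Eip63E had 1 at 268, Eip93F 1 at 111, E23 1 at 76.8 and ImpL2 1 at 55.8. The zinc finger gene br and the oxygenase gene nvd, with 53.6 and 73.4 kb of eligible intron, had none. The 2 Hr3 summits also lie inside the gene CG12912, which overlaps Hr3.

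Genes for channels and neurotransmitter receptors were hosts about as often as all genes and held few peaks for their length. Of 57 such genes with eligible intron 5 were hosts, or 8.77%, and the share weighted to their lengths was 22.5%. They held 3.80 members per Mb, the lowest density of the 22 lists. The strongest was in Ca-beta with 100.1, followed by Ih with 65.2 and nAChRalpha6 with 55.1, and the potassium channel gene Sh had none in 82.5 kb. With the conservative list 2 were hosts, and 1 and 2 with those of replicates 1 and 2. In the list for axon guidance and adhesion 17 of 78 genes were hosts (21.8%, weighted share 28.6%), led by side (294), kirre and Nrg (136). The muscle markers gave 4 of 20 (20%, weighted share 20.7%, led by mbl with 243) and the neuronal markers 3 of 26 (11.5%, weighted 14.0%, led by ChAT with 118). Glial markers gave 1 of 14, pnt (7.14%, weighted 7.07%). Haemocyte markers gave 2 of 11, ush with 76.1 and lz with 57.7 (18.2%, weighted 11.4%).

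Some lists were chosen for the known roles of al. In the appendage patterning list 8 of 37 were hosts (21.6%, weighted share 18.8%). They included hth, which patterns the proximal leg, with 2 up to 182 (129 and 50.7), cv-c with 3 up to 167 and bab2 with 1 at 119, whereas bab1 had none in 59.4 kb and inv none in 28.8 kb. Of 23 paired-class homeobox genes 2 were hosts (8.70%, weighted share 14.6%), Vsx1 with 89.7 and OdsH with 50.2. The gene al had no member in its 5894 bp of eligible intron. Its nearest peak was intergenic, 303 bp from its start site, with a signal of 50.6. Among the Hox and segmentation genes 5 of 26 were hosts (19.2%, weighted share 15.1%), with Abd-B (82.1), cnc (74.1) and Antp (3 members up to 67.5), and Ubx had none in 73.3 kb.

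The other 10 lists are given with the share of all genes weighted to the same lengths as the second percentage. Insulin and growth genes had 8 hosts of 25 (32%, 16.2%), led by sima with 264 and bun with 178. Hedgehog and Hippo genes had 7 of 22 (31.8%, 13.6%), led by wts with 157 and kibra with 148. Cytoskeleton and junction genes had 12 of 38 (31.6%, 19.4%), led by scrib with 174. Chromatin regulators had 9 of 41 (22%, 11.0%), with osa, chn at 212 and Psc at 125. In each of these 4 lists the host share was above the weighted one by over 10 points, and none was tested. Tracheal and epidermal markers had 5 of 19 (26.3%, 18.6%), led by bnl with 116 and grh with 112. Wnt genes had 6 of 24 (25%, 18.9%), with fz at 228 and the coreceptor gene arr at 200. Gut, fat body and germ line markers had 3 of 16 (18.8%, 12.5%), with pum at 90.3. The shares were closer in RNA-binding regulators, with 8 of 32 (25%, 20.8%) and shep at 147, and in G protein and cAMP genes, with 8 of 34 (23.5%, 19.3%) and Pka-C1 at 209. Notch genes had 3 of 13 (23.1%, 19.7%), with the coactivator mam at 343 and N at 134.

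**Figure D4:**
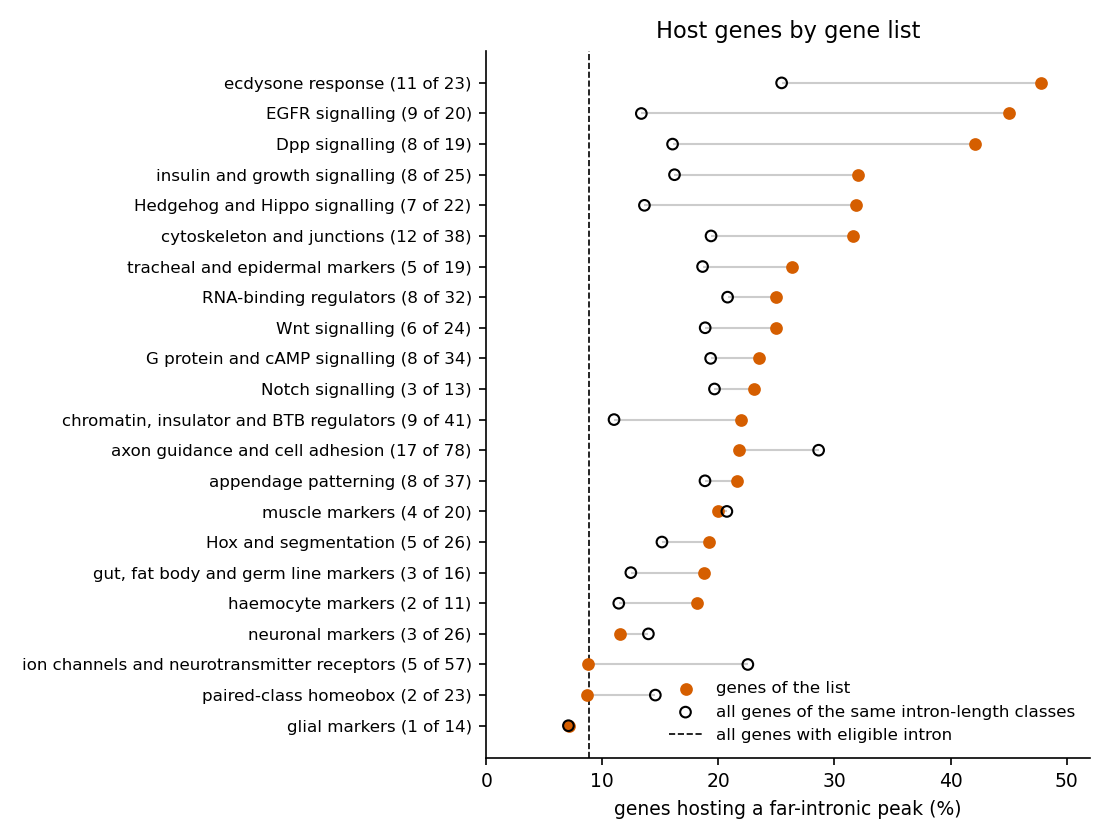
Share of genes with eligible intron that host a far-intronic peak (x axis, %) in each of 22 gene lists, with host and gene counts in the labels. Filled circles are the lists, open circles the share of all genes weighted to the same intron-length classes and the dashed line all genes at 8.84%; ecdysone, EGFR and Dpp lie farthest right, and ion channels lie left of their open circle.

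The core was found at 119 far-intronic summits, and this count did not pass the test against neighbouring sequence. Within 100 bp of the summit 17.2% of members held TAATTA, against 17.7% of all peaks. In a window of the same length centred 1000 bp to 1 side, 96 members (13.9%) held it. The ratio was 1.24, with 100 members holding it at the summit only and 77 in the flank only (exact two-sided McNemar test, p = 0.0979, Benjamini-Hochberg adjusted p = 0.661 over 27 motifs). Over all peaks the ratio was 1.54 (exact McNemar adjusted p = 1.34e-13). Summits were richer in A and T than flanks in both sets, and the part of this composition in the 2 ratios was not tested. Among pairs that differed, the summit held the core in 56.5% for members and 63.7% for all other peaks, a difference of -7.23 points (Newcombe interval -15.3 to 0.642), so a lower preference in far introns is not shown. The share at summits differed from that of near-intronic peaks by -0.182 points (-3.75 to 3.52). With the conservative list the direction turned, with 16.6% of 591 summits and 17.3% of flanks. The flank sides were drawn anew for that list, so list and flank side changed together and their parts cannot be told apart.

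Within the members the core share was higher where the signal was higher, with 12.1%, 14.0%, 20.3% and 22.5% in the 4 signal classes from weakest to strongest. The flank shares were 16.2%, 12.2%, 11.6% and 15.6% and followed no such order. Of the 264 members in both replicate lists 23.5% held the core (18.8 to 29.0), against 11.0% (7.30 to 16.2) of the 191 in neither. Flank windows gave 14.8% and 14.7%. The 119 members with the core had a median signal of 90.3 and the other 571 of 75.5. For the 264 alone the summit-to-flank ratio was 1.59, with an exact McNemar adjusted p of 0.346 over the motifs. In 50-bp steps along the 2 kb around the summit, members held 1.3 and 1.1 core sites per kb in the steps centred 50 bp to the left and on the summit. Elsewhere the steps ran from 0.377 to 1.33, so single steps in the flanks came as high.

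**Figure D5:**
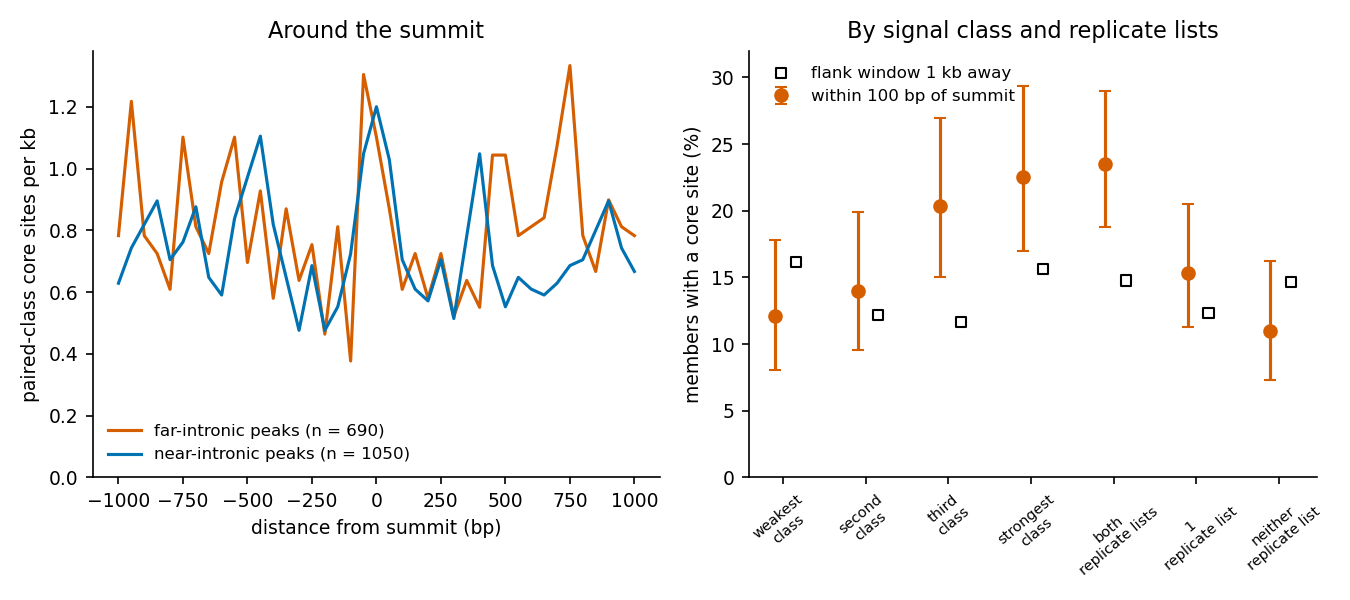
Left, core sites per kb against distance from the summit in bp for far-intronic and near-intronic peaks, in steps of 50 bp; right, share of far-intronic peaks with the core (%) by signal class and by replicate lists, with 95% Wilson bars, and the share in the flank window as open squares. The summit share climbs from 12.1% to 22.5% over the classes, and flank shares lie between 11.6% and 16.2%.

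None of the 27 motifs passed an adjusted p of 0.05 at far-intronic summits in the exact McNemar test, and 3 had an unadjusted p under 0.05. Over all peaks, with 3822 pairs rather than 690, 25.9% of the 27 tests passed with the motif more frequent at the summit. The 3 were the paired site with a 2-bp spacer, the E-box CACGTG and the nuclear receptor half-site AGGTCA, each with an exact McNemar adjusted p of 0.0733. They were at 23 summits and 7 flanks (ratio 3.29), at 7 and 22, and at 22 and 44. Summits were richer in A and T than flanks, and the part of this composition in the motif counts was not tested. Over all peaks the same 3 motifs passed the threshold, at 111 summits and 47 flanks (ratio 2.36), at 71 and 113, and at 159 and 207. All peaks include the 690 members, so this is no separate support. Among pairs that differed the summit held CACGTG in 24.1% for members and 40.9% for all other peaks. For AGGTCA these shares were 32.8% and 45.4%. Near-intronic peaks held the paired site at 24 summits and 12 flanks. Among pairs that differed the summit held the paired site in 76.7% for members and 69.7% for all other peaks. The difference was 6.99 points (Newcombe interval -12.1 to 21.4). The paired site passed when start sites of every gene type set the distance limit (22 of 640 summits or 3.44%, ratio 4.40, exact McNemar adjusted p = 0.0409) and with flanks 500 bp away (adjusted p = 0.0374). It did not pass under the other 12 of 14 settings: over all 14 the exact McNemar adjusted p ran from 0.0374 to 0.863 and the ratio from 1.71 to 12. The arrangement with a 3-bp spacer was at 17 summits and 15 flanks. Among pairs that differed the summit held it in 53.1%, against 74.8% in other peaks (difference -21.7 points, -39.7 to -3.69). In intergenic peaks beyond 2000 bp it was at the summit only in 6 and in the flank only in 6. In near-intronic peaks these counts were 34 and 15.

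Motifs of housekeeping promoters were rare at intronic summits, both far from a TSS and near one. The DRE, TATCGATA, which promoters of housekeeping genes carry, was at 2 summits and 4 flanks. Near-intronic peaks held it at 13 summits and 18 flanks, and all peaks at 167 and 26. Motif 1, GGTCACACT, was at 1 summit and 1 flank of the members, at 8 and 8 of near-intronic peaks and at 54 and 20 over all peaks. The half-site TCGATA was at 51 summits and 40 flanks (ratio 1.27, exact McNemar adjusted p = 0.813). Among pairs that differed the summit held TCGATA in 57.3% for members and 72.3% for other peaks (difference -15.0 points, -26.7 to -3.87). For near-intronic peaks TCGATA was at the summit only in 97 and in the flank only in 84, so the difference from other peaks is not particular to far introns. The GAGA site GAGAG was at 155 summits and 154 flanks, the Zelda site CAGGTAG at 8 and 7, and the AP-1 site TGANTCA at 38 and 48.

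Summits of the members were richer in A and T than their flanks. The median GC content of the 201 bp around the summit was 34.3%, against 39.8% in the flanks, with a median difference of -4.98 points, and it was higher at the summit in 211 of 690. Near-intronic summits had 34.6% and flanks 41.3%, with a median difference of -6.47. The 6-mers moved with this composition, and its part in them and in the motif counts was not tested. Of all 6-mers, each counted together with its reverse complement, 135 were more frequent at far-intronic summits than in flanks and 134 less (exact McNemar test, adjusted p of at most 0.05). Over all peaks the shares were 22.1% more frequent and 45.3% less. The 135 held a mean of 1.18 G or C letters and the 134 a mean of 3.93. The smallest p went to ATATTA, at 35.8% of summits and 17.2% of flanks (exact McNemar adjusted p = 2.86e-11).

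Among the 6-mers past the threshold, the 10 with the largest ratios were not made of A and T alone. AGTATC led with 7.54% of summits and 2.61% of flanks, a ratio of 2.89 (exact McNemar adjusted p = 0.00131). GTGCAC followed with 9.42% and 3.62%, a ratio of 2.60, then ATACCC with 2.38, AGGGTA with 2.36 and AGGTAT with 2.33. AGTGTA, at 17% and 7.39%, and ACTGTA, at 18.4% and 8.12%, had ratios of 2.29 and 2.27 with adjusted p of 7.57e-06 and 3.06e-06. CTATAA (2.22), CACTGA (2.17) and GGTATA (2.14) closed the set. Each of the 10 was also more frequent at summits over all peaks, with ratios from 1.24 for AGTATC to 2.24 for AGGGTA. All peaks include the members in which the 10 were picked, so this is no separate support. The other peaks alone were not counted. Several of the 10 overlap by 4 or 5 letters, as ATACCC does with the reverse complement of AGGGTA, so they are not 10 separate sequences.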

How the data were processed

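ChIP-seq peaks were measured in 2 biological replicates. The authors deposited 8 peak lists on dm6, thresholded or ranked, per replicate and for the series, per the notes deposited with the samples. Each peak has the authors' signal value and −log10 of its q value and of its irreproducible discovery rate (IDR). For the aligner, the caller and the filters nothing is stated (not given in the sources used here). Summit positions were set against Ensembl release 115 (BDGP6.54) and the RefSeq release 6 sequence, which have the coordinates of dm6. A member's replicate signal is that of the strongest overlapping peak in that replicate's ranked list. Motifs and 6-mers within 100 bp of each summit were set against 1 window 1000 bp to a random side, by exact two-sided McNemar tests with Benjamini-Hochberg adjustment. The tests were checked on simulated pairs made from flank sequence alone. That check does not cover the difference in base composition between summits and flanks. Shares have Wilson, differences Newcombe, densities exact Poisson and their ratios exact binomial 95% intervals. The work used Python 3.11.15, numpy 2.4.6, pandas 2.3.3 and scipy 1.17.1.

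The members, gene lists, motifs and tests were chosen with earlier results of these data known. Genes were named by rule: al, hosts of the 12 strongest members and of the 5 strongest with the core, the 5 genes with most members, up to 3 hosts and 2 other genes per list, and the peaks at each side of the distance limit. The 10 6-mers named were those with the largest ratios among the ones past the threshold. Other genes named (all hosts of the EGFR, Dpp and ecdysone lists, further genes with 6 or more members, the largest groups, the longest genes, ranked peaks outside the list and the sequences shown) were chosen after their values were seen. Alternatives were other lists, distances, windows, flanks and overlaps.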

Additional observations from a re-analysis of the deposited data

Results flagged for a closer look

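Ranked peaks outside the thresholded list used here held far-intronic summits as well. Of 36985 such entries, 17 had a global IDR of at most 0.01, the limit that the thresholded peaks meet, and 12 of these 17 had a signal above the members' median of 78.6. The strongest was in trx, which encodes a histone methyltransferase, with a signal of 592, and its replicate values were 335 and 260. The next was in tara with 586 (367 and 216), and Kdm2, a histone demethylase gene, held peaks with 348 (221 and 130) and 313 (194 and 123). These 4 lie on 3R, as do 15 of the 17, and the other 2 lie on 2L. Why these entries are absent from the thresholded list was not tested. With the 17 added there were 707 far-intronic peaks, 16.4 per Mb, in 445 genes.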

How the results depend on the processing

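No paired analysis of samples was possible because the data hold 1 group. No read depth is in the lists used here, so weak peaks cannot be set against their counts, and a few flank positions decide small motif counts.

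Leaving out each replicate (the other's own list) gave 303 to 496 far-intronic summits, 7.01 to 11.5 per Mb, median signals of 54 to 61.8, 224 to 329 host genes and 52 to 190 6-mers past the threshold. The signal scale of a replicate list may differ from that of the series list, so these medians cannot be set against the main one. The conservative list gave 13.7 per Mb, a median signal of 89.8 and a core ratio of 0.961, below 1. Its flank sides were drawn anew, and the cause of the lower ratio was not tested. A distance limit of 1000 bp gave 19.9 per Mb and 478 6-mers. A limit of 5000 bp gave 378 summits, 12.1 per Mb, 251 host genes and 79 6-mers. Members with an own q of at most 0.05 gave 10.8 per Mb and a median signal of 104.4, since weaker peaks are left out. A reciprocal overlap of 50% gave shares of 63.0% and 35.9% held by replicates 1 and 2. Start sites of every gene type gave 1 motif past the threshold, and flanks 500 bp away gave 4 motifs, 1 of them more frequent at the summit, and 412 6-mers. Windows of 250 bp gave 56 6-mers, flanks in far introns 142 and, chosen after seeing the data, members in both replicate lists 98, against 269 in the main test. The X to autosome ratio lay between 1.57 and 1.76 under the alternatives to the count. The core did not pass the threshold under any of the 14 settings run. The opposite flank and the addition of ranked peaks were also chosen after seeing the data. Of 220 recounts of list host genes 173 were within 1.5 times the main count.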
